A study of Mus musculus with 6 samples.

Results

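Cholesterol handling in meningeal lymphatic endothelial cells was examined through 32 genes of sterol synthesis, sensing and transport, taken by name from the 22964 genes of the deposited table. All 32 were found and all 32 passed the filter on low counts. They comprised 16 enzymes of synthesis (Acat2, Hmgcs1, Mvk, Pmvk, Mvd, Idi1, Fdps, Fdft1, Sqle, Lss, Cyp51, Msmo1, Nsdhl, Hsd17b7, Sc5d and Dhcr7), 7 sensors and regulators (Srebf1, Srebf2, Scap, Insig1, Insig2, Nr1h2 and Nr1h3) and 9 genes of transport, storage and efflux (Npc1, Npc2, Stard4, Gramd1a, Gramd1b, Gramd1c, Soat1, Abca1 and Abcg1). The study compared ages in the lining cells of meningeal lymphatic vessels, a drainage route of the tissue that wraps the brain. RNA was sequenced from 3 samples of old mice aged 20 to 24 months and 3 samples of young mice aged 2 to 3 months. All were male, wild type and C57BL/6J, none was treated, and the cells were sorted as negative for the leukocyte protein CD45 and positive for the endothelial protein CD31 and for podoplanin. The labels do not say whether a sample was a single mouse or a pool. The spread behind each p-value is that between samples and may be technical.

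Cells make cholesterol from acetyl-CoA by way of mevalonate, squalene and lanosterol, and take it up in lipoproteins that are broken down in lysosomes. When sterol in the endoplasmic reticulum is scarce, SCAP carries the SREBP transcription factors to the Golgi for cleavage and they turn on the synthesis genes, while INSIG proteins hold SCAP back when sterol is plentiful. When oxysterols accumulate, the LXR receptors encoded by Nr1h2 and Nr1h3 turn on the efflux pumps encoded by Abca1 and Abcg1.

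The sorted cells carried the defining transcripts of lymphatic endothelium and also those of other cells. Depth was 14285794 to 20886836 estimated counts in old samples and 15733100 to 21043945 in young samples. Levels are given as CPM, counts relative to a library's total after scaling for composition, and 1 CPM stood for 13.4 to 22.2 counts. The summed level of 8 lymphatic markers, among them Prox1, Lyve1 and Flt4, was 16548 to 20309.9 CPM in old and 10461 to 12962 CPM in young samples, and none was at 0 in any sample. Of other lists, 10 fibroblast markers summed to 2593 to 3079.9 CPM in old and 5360.3 to 8211 CPM in young samples. The 16 macrophage markers summed to 855 to 2328 CPM in old and 836 to 4807 CPM in young samples. Mrc1 gave 679, 414 and 739 CPM of the macrophage sum in old samples 1, 2 and 3. In young samples 1, 2 and 3 it gave 401, 452 and 362 CPM. The sums were 2338 to 3311 CPM in old and 1733 to 1849 CPM in young samples for 6 markers of all endothelium and 1332 to 1776 CPM in old and 664 to 872 CPM in young samples for 9 of blood endothelium. They were 860.1 to 1952 CPM in old and 620.4 to 959 CPM in young samples for 9 pericyte and smooth muscle markers, and 26.6 to 58.0 CPM in old and 12.6 to 80.7 CPM in young samples for 6 lymphocyte markers. The markers at 0 in at least 1 sample were Slc22a6, Cd163, Tyrobp, Mfsd2a, Des, Cspg4, Ms4a1 and Cd3e, and none was at 0 in all 6. The part of these cell types in the levels below was not tested. In bulk samples, fewer cells of a type and less RNA per cell cannot be told apart.

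Promoter letters, which the choice of genes did not use, were compared between the roles. RefSeq promoter windows of GRCm38.p6, which run from 250 bases before a start site to 50 after it, were listed for 13 of the 16 synthesis genes, all 7 regulators and 5 of the 9 transport genes. Fdps, Fdft1, Sqle, Npc1, Stard4, Gramd1b and Abcg1 were not among them. The letters CCAAT, the site of the factor NF-Y that works beside SREBP, were searched on both strands. They occurred in 12 of 16 windows of synthesis genes, 38.5% of 13 windows of regulators and 57.1% of 7 windows of transport genes. The share was 36.9% of the 13900 windows of genes tested here. Some genes had more than 1 window. By gene, they occurred in 12 of 13 synthesis genes, 4 of 7 regulators and 4 of 5 transport genes. Among genes tested here with a window, 4589 of 10908 had them, so synthesis and transport genes differed less by gene than by window. The letters TCACNCCAC, a core of the sterol regulatory element that SREBP binds, occurred in 1 window of a member, that of Hmgcs1, and in 1.14% of the windows of genes tested here. An exact direct repeat of AGGTCA with the spacing that LXR binds was in no window of a member and in 0.007% of the windows of genes tested here. These exact letters are too rare for their absence to set the members apart. Inexact forms of the repeat were not searched, so the search cannot say whether a window, that of Abca1 included, lacks an LXR site. The GC box GGGCGG was in 81.2% of the synthesis windows and 59.2% of those of genes tested. These matches describe letters in a window and not bound sites. The bases before the start site are shown for the synthesis genes with the sterol core (Hmgcs1), with the most negative fold change (Mvk) and with old samples above young (Sc5d), and for the most abundant transport gene (Abca1). Capitals mark CCAAT, read as ATTGG on the other strand, and the sterol core.
Hmgcs1: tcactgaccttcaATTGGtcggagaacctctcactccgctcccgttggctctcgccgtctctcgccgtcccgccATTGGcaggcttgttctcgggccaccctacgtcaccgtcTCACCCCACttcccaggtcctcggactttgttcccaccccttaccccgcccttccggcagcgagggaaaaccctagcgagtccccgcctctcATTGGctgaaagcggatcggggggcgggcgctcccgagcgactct
Mvk: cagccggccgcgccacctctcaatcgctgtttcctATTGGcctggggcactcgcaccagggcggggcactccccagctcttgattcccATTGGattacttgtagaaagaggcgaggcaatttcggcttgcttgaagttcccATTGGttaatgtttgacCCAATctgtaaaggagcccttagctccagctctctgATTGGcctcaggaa
Sc5d: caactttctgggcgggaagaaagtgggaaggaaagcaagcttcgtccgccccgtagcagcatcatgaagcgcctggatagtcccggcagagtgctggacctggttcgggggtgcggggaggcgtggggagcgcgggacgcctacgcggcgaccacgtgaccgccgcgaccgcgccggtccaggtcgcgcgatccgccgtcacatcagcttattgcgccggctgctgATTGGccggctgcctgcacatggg
Abca1: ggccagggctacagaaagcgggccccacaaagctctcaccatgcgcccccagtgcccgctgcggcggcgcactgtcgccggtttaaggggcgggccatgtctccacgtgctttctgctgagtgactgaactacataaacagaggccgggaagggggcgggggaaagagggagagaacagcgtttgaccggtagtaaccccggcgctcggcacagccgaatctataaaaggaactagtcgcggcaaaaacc
The stretches lie at chr13:119690101-119690350 (plus strand), chr5:114444061-114444268 (plus strand, without the bases that an exon of Mmab covers), chr9:42264301-42264550 (minus strand) and chr4:53159896-53160145 (minus strand). They hold 3, 5, 1 and 0 CCAAT letters in the order shown.

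Per kilobase of exon, the transport and efflux genes were more abundant in sum than the synthesis genes in every sample. The 9 transport genes summed to 247, 192 and 159 CPM per kilobase in old samples 1, 2 and 3 and to 156, 147 and 129 in young samples 1, 2 and 3, and the 16 synthesis genes to 40.1, 76.5 and 56.2 in old and 46.3, 57.0 and 52.5 in young samples. The transport sum was thus 6.16, 2.50 and 2.82 times the synthesis sum in old samples and 3.36, 2.58 and 2.46 times in young samples, and old sample 1 lay above the other 5. The size of the excess rested largely on Abca1. Without it the transport sums were 126, 109.9 and 55.4 CPM per kilobase in old and 57.5, 65.9 and 63.6 in young samples. Only that of old sample 3 was then below its synthesis sum, at 55.4 against 56.2, and old sample 1 still had the largest excess. Not divided by length, the 9 transport genes summed to 2109.6, 1617 and 1485 CPM in old samples 1, 2 and 3 and to 1447, 1307 and 1144 CPM in young samples 1, 2 and 3. The 16 synthesis genes summed to 188, 322 and 239.8 CPM in the old samples and to 199, 244 and 233 CPM in the young samples. The undivided transport sums did not overlap between ages, with a mean of 1737 ± 329 CPM in old and 1299 ± 152 CPM in young cells (SD, n = 3 each), a ratio of 1.34. The synthesis sums overlapped, at 249.9 ± 67.6 CPM in old and 225 ± 23.5 CPM in young cells, a ratio of 1.11. Abca1 was the largest part of the transport sum, and without it the sums in CPM were 851, 771 and 413 CPM in old and 428, 468 and 463 CPM in young samples, which overlapped. Without Gramd1b they were 1960.4, 1509 and 1347 CPM in old and 1418, 1247 and 1119.9 CPM in young samples, which also overlapped.

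**Figure D1:**
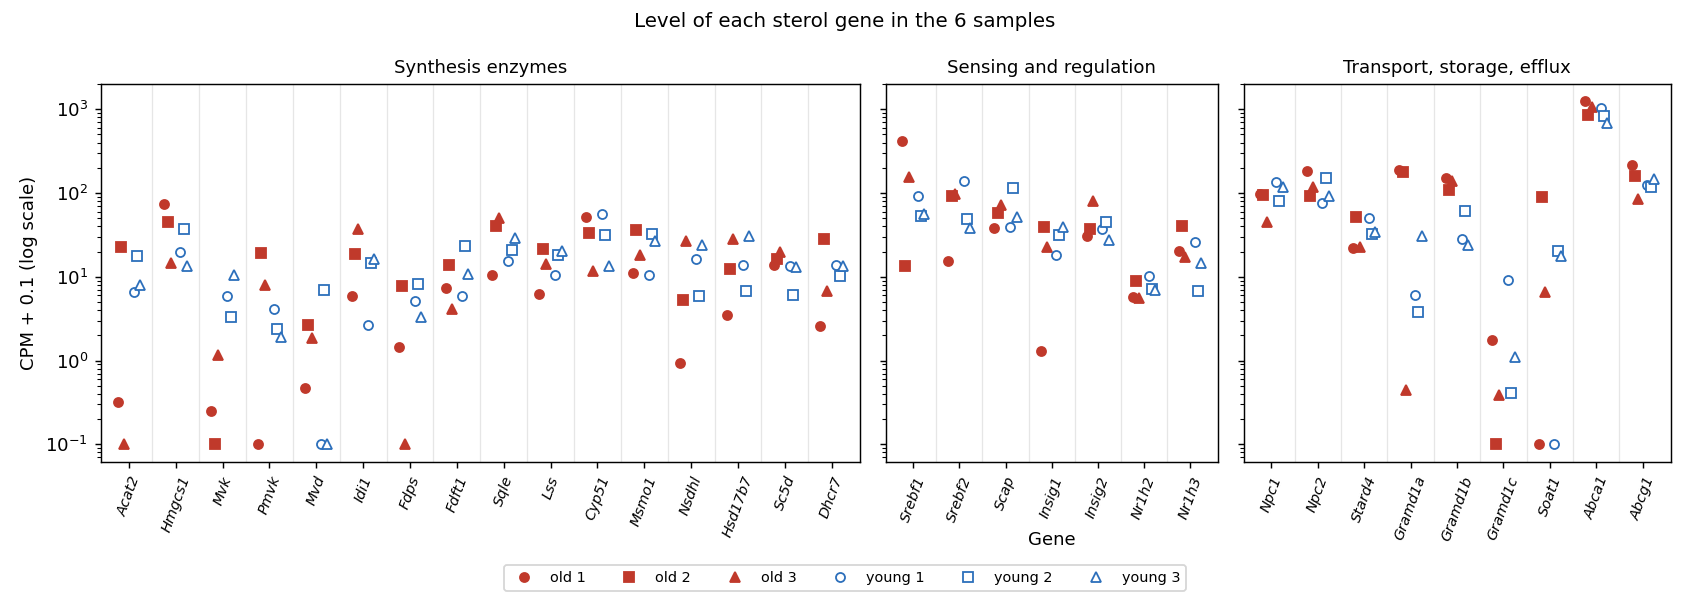
CPM plus 0.1 on a log axis for each of the 32 genes, grouped by role, with old samples filled red and young samples open blue and the marker shape giving the sample number. Abca1 stands above all other genes at 681 to 1258 CPM, and 6 of the 16 synthesis genes range over more than 10-fold, or hold a 0, among the old samples (37.5%, against 29.8% of all genes tested).

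No sterol gene passed the test over all genes. The edgeR quasi-likelihood test with Benjamini-Hochberg adjustment called 0 of the 32, as it called 0% of the 15394 genes tested (0 genes), and the smallest adjusted p among the members was 0.687, for Gramd1b. At an unadjusted p under 0.05, 2 of the 32 passed (6.25%), Gramd1b higher and Mvk lower in old cells, beside 5.56% of all genes (856), with 2.86% of all genes higher and 2.7% lower. DESeq2, run as an alternative, called 1 member, Gramd1b, beside 1.79% of genes (294 of 16435), and limma-voom called 0 members beside 0.0195% of genes (3). Old samples lay all above young for 2 members (Gramd1b and Sc5d, 6.25%) and all below for 1 (Mvk, 3.12%), against 5.56% and 6.44% of all genes. These shares were close to those of all genes. Of the 32, 14 had a positive log2 fold change (43.8%) and 18 a negative one, where 51% of all genes were positive.

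Synthesis and transport genes were set against each other by their median log2 fold change, old against young. The median was −0.16 over the 16 synthesis genes, with 5 positive and 11 negative and an interquartile range of −0.52 to 0.60. It was 0.29 over the 9 transport genes, with 6 positive and 3 negative and an interquartile range of −0.30 to 1.32. The 7 regulators had a median of −0.16, with 3 positive, and all genes tested had a median of 0.02 with an interquartile range of −0.62 to 0.60. The synthesis median was therefore 0.45 log2 units below the transport median, a difference of −0.45. As levels, the median log2(CPM + 1) of the synthesis genes was 2.45, 4.31 and 3.79 in old samples 1, 2 and 3 and 3.51, 3.72 and 3.83 in young samples 1, 2 and 3. That of the transport genes was 7.23, 6.56 and 5.53 in old and 5.68, 5.94 and 5.15 in young samples. The ages overlapped for both roles. The order rested on old sample 1: without it the synthesis median was 0.17, the transport median −0.03 and the difference 0.19. Old sample 1 had the lowest value of the old samples for 10 of 16 synthesis genes and the highest for 7 of 9 transport genes. It also had the highest pericyte and smooth muscle marker sum, at 1952 CPM against 620.4 to 1150.3 CPM in the others. The part of cell content in the order of the medians was not tested.

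**Figure D2:**
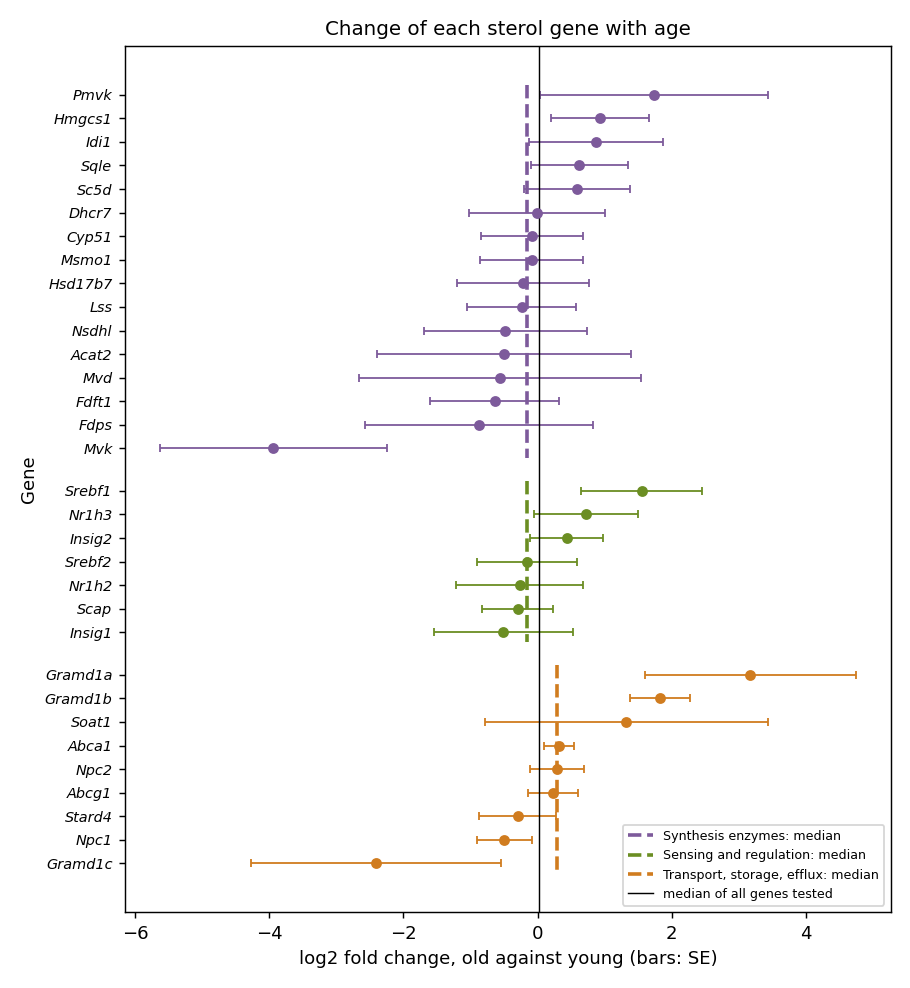
Log2 fold change of each gene, old against young, with its standard error, grouped by role and ordered within each role; dashed lines are the role medians of −0.16, −0.16 and 0.29 and the black line is the median of all genes tested, 0.02. Gramd1b is the gene furthest from 0 relative to its error.

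**Figure D3:**
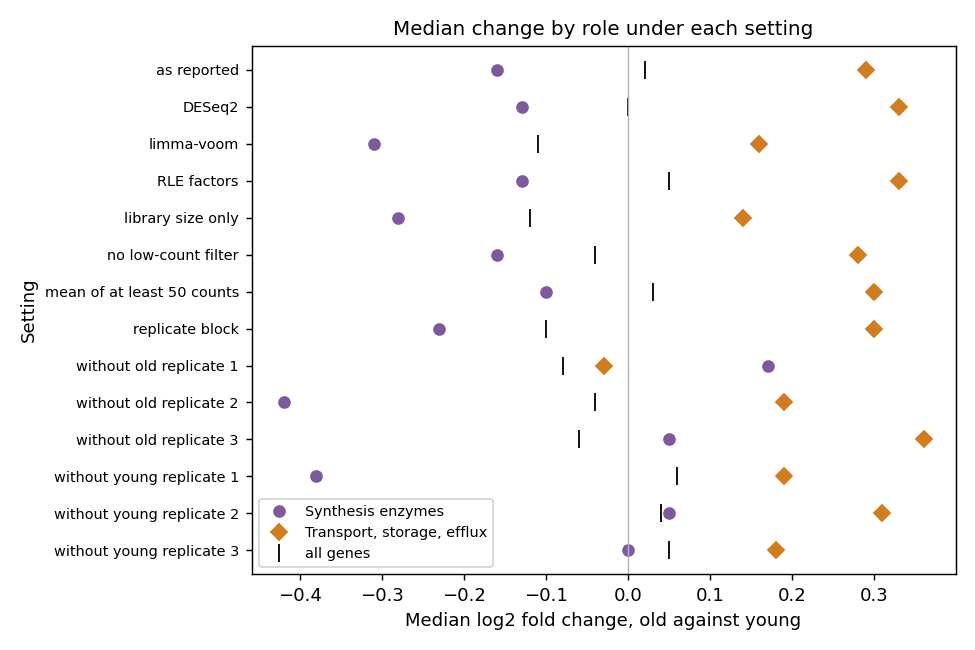
Median log2 fold change of the synthesis genes, the transport genes and all genes tested under the reported fit and 13 alternatives. The transport median exceeds the synthesis median in every fit shown except the one without old sample 1, where they are −0.03 and 0.17.

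The early enzymes, which build mevalonate and turn it into isoprenoids, varied widely between samples. Hmgcs1 (ENSMUSG00000093930; chromosome 13, 119690379 to 119708260, plus strand), which makes HMG-CoA and carries the sterol core shown above, had 73.7, 45.0 and 14.5 CPM in old samples 1, 2 and 3, against 19.9, 36.8 and 13.2 CPM in young samples 1, 2 and 3. Old samples 1 and 2 were the highest of the 6 and old sample 3 lay among the young ones, with a log2 fold change of 0.93 (SE 0.73, edgeR adjusted p = 0.936). Mvk, mevalonate kinase, whose promoter is shown above, had 0.15, 0 and 1.07 CPM in old samples, which were 2, 0 and 22 counts, against 5.77, 3.25 and 10.4 CPM in young samples, which were 93, 64 and 230 counts. All old samples were below all young ones, and the log2 fold change was −3.94 (SE 1.69, edgeR adjusted p = 0.888, unadjusted p = 0.045). A count of 0 in old sample 2 allows up to 0.218 CPM, taken as 3 counts, which covers counting error only. Mvk falls under the level of 5 CPM set for describing a gene in full and is named because it is 1 of the 2 members past an unadjusted p of 0.05. Pmvk, phosphomevalonate kinase, the next enzyme, did not share the pattern: it had 0, 19.0 and 7.86 CPM in old samples, against 3.97, 2.29 and 1.80 CPM in young samples. Mvd, the decarboxylase that follows, had 0.374, 2.54 and 1.76 CPM in old samples, against 0, 6.91 and 0 CPM in young samples, so young sample 2 was the highest of the 6. Acat2, the thiolase that starts the pathway, had 0.224, 22.4 and 0 CPM in old samples, against 6.39, 17.8 and 7.88 CPM in young samples. Fdps, which makes farnesyl diphosphate, had 1.35, 7.63 and 0 CPM in old samples, against 5.03, 8.18 and 3.20 CPM in young samples. The ages overlapped for both genes. Idi1, which isomerises isopentenyl diphosphate, had 5.84, 18.8 and 36.6 CPM in old samples, against 2.54, 14.6 and 16.4 CPM in young samples. The 7 genes from Acat2 to Fdps summed to 86.1 ± 26.9 CPM in old and 62.1 ± 24.5 CPM in young cells (SD, n = 3 each), a difference within the spread.

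The later enzymes, which join isoprenoids into squalene and turn lanosterol into cholesterol, had almost the same summed level at either age, at 163 ± 51.6 CPM in old and 164 ± 14.3 CPM in young cells (SD, n = 3 each) for the 9 genes from Fdft1 to Dhcr7. Cyp51 (ENSMUSG00000001467; chromosome 5, 4081145 to 4104746, minus strand), the lanosterol demethylase and, over the mean of all 6 samples, with Hmgcs1 the most abundant synthesis gene per kilobase of exon, had 51.1, 33.1 and 11.7 CPM in old samples, against 56.7, 31.2 and 13.2 CPM in young samples. Its values ranged 4.38-fold among old and 4.30-fold among young samples and overlapped, with a log2 fold change of −0.08 (SE 0.76, edgeR adjusted p = 1.00). Per kilobase, Cyp51 stood at 7.24 CPM in old and 7.63 CPM in young cells, and Hmgcs1 at 9.67 CPM in old and 5.07 CPM in young cells. Sc5d (ENSMUSG00000032018; chromosome 9, 42251595 to 42264256, minus strand), the lathosterol desaturase, had 13.8, 16.1 and 19.4 CPM in old samples, against 13.5, 5.99 and 13.1 CPM in young samples. Its old samples lay above its young ones by a small margin, with a log2 fold change of 0.59 (SE 0.79, edgeR adjusted p = 0.965). Sqle, squalene epoxidase, a rate-controlling step, had 10.5, 40.5 and 49.5 CPM in old samples, against 15.5, 20.8 and 28.9 CPM in young samples, which overlapped. Dhcr7, a late reductase, had 2.47, 27.9 and 6.74 CPM in old samples, against 13.8, 10.2 and 13.4 CPM in young samples, so the old samples varied 11.3-fold and the young ones 1.35-fold. Nsdhl, a sterol dehydrogenase, likewise varied 32.1-fold among old and 4.07-fold among young samples. Fdft1, Lss, Msmo1 and Hsd17b7 averaged 8.44 to 21.7 CPM in old and 13.2 to 23.2 CPM in young cells, and their groups overlapped.

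Scatter between samples was larger in old than in young samples for synthesis, transport and all genes alike. The median SD of log2(CPM + 1) between samples was 1.16 in old and 0.71 in young cells for synthesis genes, 0.68 in old and 0.52 in young cells for transport genes, and 0.81 in old and 0.63 in young cells for all genes tested. A more than 10-fold range, or a 0 beside a measured value, was found for 6 of 16 synthesis genes (37.5%) in old and 1 (6.25%) in young samples, and for 3 of 9 transport genes (33.3%) in old and 2 (22.2%) in young samples. Over all genes tested the shares were 29.8% in old and 19.0% in young samples, so the synthesis and transport shares in old samples were near that of all genes. Synthesis genes had a median level of 13.3 CPM, against 84.7 CPM for transport genes and 16.9 CPM for all genes tested, and the part of this lower count in the scatter was not tested.

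Of the regulators, Srebf1 was the most abundant per kilobase, at 34.8 CPM in old and 11.9 CPM in young cells, and its old level rested largely on old sample 1. Srebf1 (ENSMUSG00000020538; chromosome 11, 60199089 to 60222581, minus strand), which encodes SREBP-1, had 418, 13.5 and 157 CPM in old samples, against 92.1, 52.8 and 56.6 CPM in young samples. Old samples 1 and 3 were above and old sample 2 below every young sample, with a log2 fold change of 1.55 (SE 0.90, edgeR adjusted p = 0.891), which was 0.34 without old sample 1. Srebf2, whose product SREBP-2 is the main activator of the synthesis genes, had 15.3, 91.5 and 96.2 CPM in old samples, against 140.1, 48.5 and 38.3 CPM in young samples, so old sample 1 held the highest Srebf1 and the lowest Srebf2. Insig2 (ENSMUSG00000003721; chromosome 1, 121304353 to 121332589, minus strand), a retention protein for SCAP, had 30.6, 37.3 and 79.5 CPM in old samples, against 37.0, 44.6 and 27.5 CPM in young samples. Its groups overlapped, with a log2 fold change of 0.43 (SE 0.55, edgeR adjusted p = 0.965). Its paralog Insig1, itself a target of SREBP, had 1.20, 39.3 and 22.5 CPM in old samples, against 18.1, 31.8 and 39.5 CPM in young samples, with old sample 1 far below the rest. Scap averaged 55.8 ± 17.0 CPM in old and 68.8 ± 41.1 CPM in young cells. Of the LXR genes, Nr1h3 averaged 26.0 ± 12.5 CPM in old and 15.8 ± 9.82 CPM in young cells and Nr1h2 averaged 6.64 ± 1.86 CPM in old and 8.03 ± 1.87 CPM in young cells, each within its spread (SD, n = 3 each).

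Gramd1b had the smallest unadjusted p of the 32 genes. The Gramd1 genes encode the Aster proteins, which sit in the endoplasmic reticulum and move cholesterol there from the plasma membrane. Gramd1b (ENSMUSG00000040111; chromosome 9, 40293233 to 40531383, minus strand), which encodes Aster-B, had 149, 109 and 138 CPM in old samples 1, 2 and 3, against 28.4, 60.2 and 23.6 CPM in young samples 1, 2 and 3. Every old sample was above every young one. The log2 fold change was 1.82 (SE 0.45), or 3.53-fold, with an unadjusted p = 0.0033 and an adjusted p = 0.687 in edgeR, 0.691 in limma-voom and 0.0286 in DESeq2, and 0.0286 to 1.00 over all alternatives. It was 1.56 to 2.33 when each sample was left out in turn. The lymphatic and blood endothelial marker sums were also higher, and the fibroblast sum lower, in every old sample than in every young one. The pericyte and macrophage sums overlapped. Of the 16 macrophage markers, 15 had a negative log2 fold change and 1, Mrc1, a positive one of 0.59. The median over the 16 was −1.55 and 0 were called. The part of these cell types in the Gramd1b difference was not tested.

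The other Aster genes ranked the samples differently. Gramd1a, which encodes Aster-A, had 186, 177 and 0.342 CPM in old samples, against 5.90, 3.71 and 30.7 CPM in young samples. Old samples 1 and 2 were above every young sample and old sample 3, with 7 counts, was the lowest of the 6. Its log2 fold change of 3.17 (SE 1.57, edgeR adjusted p = 0.891) was 0.67 in limma-voom. Gramd1c, which encodes Aster-C, was at 1.65, 0 and 0.293 CPM in old samples, against 9.06, 0.305 and 0.990 CPM in young samples, and young sample 1 was the highest of the 6. The summed level of the 3 genes was 337, 286 and 138 CPM in old samples, against 43.4, 64.2 and 55.3 CPM in young samples, without overlap, a sum that holds Gramd1b and was chosen with its values known. In old sample 3, Gramd1b gave 138 CPM of that sum.

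**Figure D4:**
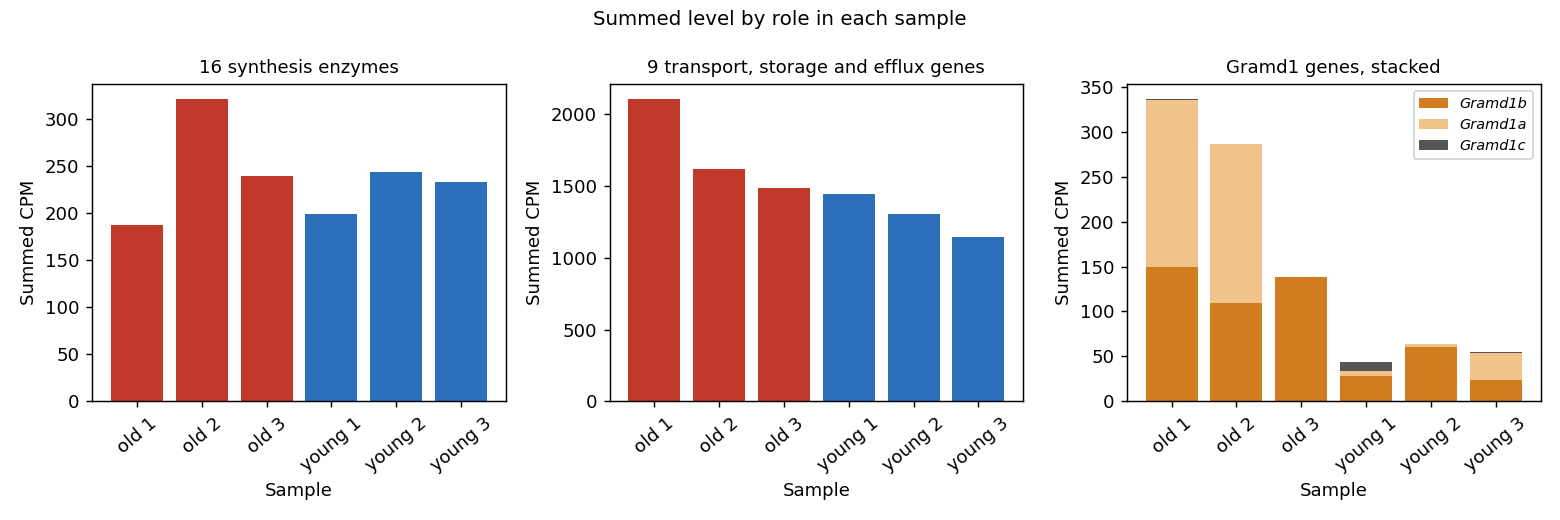
Summed CPM in each sample of the 16 synthesis genes, of the 9 transport, storage and efflux genes, and of the 3 Gramd1 genes stacked, with old samples left of young ones. The synthesis sums overlap (188 to 322 CPM in old and 199 to 244 CPM in young samples), and the Gramd1 sums do not (138 to 337 CPM in old and 43.4 to 64.2 CPM in young samples).

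Efflux genes overlapped between ages. Abca1 (ENSMUSG00000015243; chromosome 4, 53030787 to 53159895, minus strand), which pumps cholesterol to lipid-poor apolipoprotein A-I, had 1258, 846 and 1072 CPM in old samples, against 1019, 839 and 681 CPM in young samples. Per kilobase of exon it stood at 102 CPM in old and 81.7 CPM in young cells, the highest of the 32 at either age. The next transport gene over the mean of all 6 samples was Npc2, at 23.9 CPM in old and 19.5 CPM in young cells. The Abca1 groups overlapped, and its log2 fold change was 0.32 (SE 0.22, edgeR adjusted p = 0.922), the smallest standard error among the members. Abcg1, which loads cholesterol onto high-density lipoprotein, had 213, 160.5 and 83.8 CPM in old samples, against 123, 118 and 147 CPM in young samples, with the old values on either side of the young ones.

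Genes of lysosomal egress and storage also overlapped between ages. Npc2 (ENSMUSG00000021242; chromosome 12, 84754562 to 84773152, minus strand), the soluble lysosomal protein that hands cholesterol to NPC1, had 182, 91.5 and 117 CPM in old samples, against 75.0, 152 and 91.1 CPM in young samples, with a log2 fold change of 0.29 (SE 0.40, edgeR adjusted p = 0.965). Npc1, the membrane protein of the lysosome that takes cholesterol out, had 97.3, 93.6 and 45.4 CPM in old samples, against 136, 81.1 and 117 CPM in young samples. The log2 fold change of Npc1 was −0.50 (SE 0.41, edgeR adjusted p = 0.944), and that of Npc2 was −0.03 without old sample 1. Stard4, a soluble sterol carrier of the cytosol, averaged 31.7 ± 16.7 CPM in old and 39.0 ± 9.86 CPM in young cells (SD, n = 3 each). Soat1, which esterifies cholesterol for storage, had 0, 88.5 and 6.49 CPM in old samples, against 0, 20.2 and 17.7 CPM in young samples. It was at 0 in sample 1 of each age, and the groups overlapped. The macrophage marker sum was lowest in those same samples, at 855 CPM in old sample 1 and 836 CPM in young sample 1 against 1535 to 4807 CPM in the others, and its part in the Soat1 values was not tested.

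A further 32 sterol genes were read from the same fit. None was called, 16 were positive and 16 negative, and the median log2 fold change was −0.03. At an unadjusted p under 0.05, Lrp1 and Cyp7b1 passed (6.25% of the list, against 5.56% of all genes). Lrp1, an endocytic receptor that also binds lipoprotein remnants, had 1489.7, 1120.4 and 1506 CPM in old samples, against 2295, 2234 and 1929.7 CPM in young samples. Every old sample was lower, with a log2 fold change of −0.65 (SE 0.17, edgeR adjusted p = 0.693), and the fibroblast marker sum was lower in the same samples, whose part was not tested. Cyp7b1, an oxysterol hydroxylase, was at 0 in all old samples, against 2.11, 1.12 and 1.08 CPM in young samples, which were 34, 22 and 24 counts. The young mean of 1.44 CPM was 6.4-fold the highest floor of an old library, 0.224 CPM, taken as 3 counts. This floor covers counting error only, so the ratio is not a bound on the difference. The edgeR adjusted p was 0.687. The fibroblast marker sum was lower in the old samples here too, and its part in the Cyp7b1 values was not tested.

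The estimates of some members are less certain because their transcripts share sequence with other genes. The share of 31-base words of a gene's transcripts that also occur in transcripts of another gene, on either strand, was 43.7% for Acat2 (shared with Acat3 and Tcp1), 31.9% for Fdft1 (Ctsb and Gm6781), 27.9% for Fdps, 27.1% for Idi1, 13.1% for Hmgcs1 and 11.3% for Scap. It was at most 6.63% for each other member, 1.54% for Gramd1b and 0% for Abca1. No source used here says whether counting used strand, so reads from overlapping genes cannot be told apart.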

How the data were processed

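Per the labels' protocols, RNA of the sorted cells underwent linear amplification and was sequenced commercially. FastQC, Salmon and mm10 appear in the submitters' processing notes with neither version nor role. The authors deposited 1 table of estimated counts per gene; the expected counts were already whole, so rounding changed nothing. Of 22964 Ensembl identifiers, 22738 had a symbol in GENCODE M21 (GRCm38, the assembly that mm10 denotes), which also gave 1-based positions and exon lengths (the union of annotated exons). Groups and sample numbers came from the sample titles.

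The test was that of edgeR 4.0.16 (R 4.3.3). Low genes were removed with filterByExpr (minimum count 10, minimum total 15, leaving 15394 genes and removing 7570), libraries were scaled by TMM, and age was tested two-sided in a robust quasi-likelihood model, with Benjamini-Hochberg adjustment over all genes at 0.05. The SE of a log2 fold change is its size divided by the square root of the F statistic. CPM used the TMM-scaled library size. The code was tested on simulated counts. Alternatives were DESeq2 1.42.0 on the unfiltered table, limma-voom 3.58.1, other scalings and filters, a replicate block and leaving out each sample. The labels do not say that shared numbers pair the samples, so the main fit had no block. With 3 samples an age, exact permutation cannot give a p below 0.1 and was not used. List medians and sums are descriptions without a test.

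The members, lists, tests and alternatives were chosen with earlier results of these data known. Genes described in full had a mean of at least 5 CPM and either an unadjusted p under 0.05 or ages that did not overlap, or were the 2 members of a role with the highest level per kilobase. Other members are given by their values. Promoter sequences are RefSeq's, GRCm38.p6.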

Additional observations from a re-analysis of the deposited data

How the results depend on the processing

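Gene calls depended on the tool. Over all genes the edgeR count of 0 became 294 with DESeq2 and 3 with limma-voom, and stayed 0 with RLE factors, library size only, no filter, a mean of at least 50 counts and the replicate block; it was 0 to 1 when each sample was left out. Over members the count of 0 became 1 (Gramd1b) with DESeq2 and stayed 0 in the other fits. The 2 members at an unadjusted p under 0.05 became 3 with DESeq2, 3 with limma-voom, 1 without a filter and 1 with a mean of at least 50 counts, and were 1 to 3 with a sample left out. Scaling moved the median of all genes from 0.02 to −0.12 with library size only, and the genes at an unadjusted p under 0.05 were then 285 higher and 546 lower in old cells, against 441 and 415. Role medians moved by less than the SD between samples of the median log2(CPM + 1) of the role. That SD was 0.69 for synthesis, 0.64 for regulators and 0.67 for transport. Each SD exceeds the size of its role median, so this rule could hardly have shown a move. With samples left out the synthesis median was −0.42 to 0.17, the transport median −0.03 to 0.36 and the regulator median −0.33 to 0.45. The difference of synthesis minus transport was −0.61 to 0.19, and each of these ranges held both signs. Same-numbered samples of the 2 ages had correlations of 0.079, 0.053 and −0.012 between their deviations, and other pairs −0.095 to 0.059. Not every sample correlated best with its own number. With 3 samples an age, these values cannot decide whether samples of the same number shared a source of variation. The replicate block gave medians of −0.23 for synthesis and 0.30 for transport.

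Of 414 member fits under 13 alternatives, 381 kept direction and side of the threshold, 1 was newly called and 32 changed sign, none of these past the threshold. Outside the fits that left out a sample, Pmvk was −0.31 and Mvd 2.90 with limma-voom, Mvd 3.54 with the replicate block, and Dhcr7 0.01 with DESeq2 and 0.01 with RLE factors; the cause was not tested. With samples left out, the log2 fold change ran from −6.58 to 0.08 for Acat2, −1.15 to 7.75 for Mvd, −1.21 to 0.03 for Fdft1, −0.69 to 0.11 for Lss, −0.59 to 0.52 for Cyp51, −0.68 to 0.23 for Msmo1, −2.34 to 0.06 for Nsdhl, −1.13 to 0.52 for Hsd17b7, −1.43 to 0.47 for Dhcr7, −0.50 to 0.64 for Srebf2, −0.58 to 0.29 for Scap, −1.33 to 0.05 for Insig1, −0.10 to 0.68 for Insig2, −0.03 to 0.64 for Npc2, −1.96 to 1.90 for Soat1 and −0.09 to 0.53 for Abcg1. Of the 32 members, 15 kept their sign in every alternative, Gramd1b among them. Each age had 3 samples, which limits the precision.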
